A study of Mus musculus with 12 samples.

Results

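The 9 genes Mbp, Mag, Mog, Mobp, Cnp, Mal, Cldn11, Ugt8a and Opalin, which are expressed by the cells that form central myelin, were compared in the cortex of MRL/lpr, Fn14ko and MRL/+ mice. In every one of them the signal was lower in MRL/lpr than in Fn14ko, by 1.45-fold to 2.27-fold between geometric means, but the genes were chosen by this very difference, since earlier results of the same arrays had shown myelin genes lower in MRL/lpr than in Fn14ko. That difference is therefore described here without a test. Against MRL/+, the background control strain, limma called Mbp, Cldn11 and Opalin lower in MRL/lpr, as it did 8.37% of all genes. None of these calls held without the array of MRL/lpr replicates 1 and 2, and that of Mbp was lost with spots marked as uneven kept. Between Fn14ko and MRL/+ none of the 9 genes passed the threshold of limma (1 had an unadjusted p under 0.05). There limma called 0.717% of all genes lower and 0.237% higher. Members were found by the gene name of the non-control probes. They are 9 of 29608 gene names on the array and 9 of the 17302 genes quantified. All 9 passed the filter, which requires a spot to be at least 2 times its background in all 12 mice. The scanner software's stricter mark, well above background in all 12 mice, left 6 of them. Of their 13 probes, 3 belong to Mbp and 3 to Mobp, and 12 were retained.

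Each group held 4 adult female mice of the MRL strain, all taken at diestrus, from which the cortex was isolated. MRL/lpr mice carry the lpr mutation of Fas and develop a disease that resembles lupus. Fn14ko mice (Fn14koMRL in the labels) carry lpr as well and in addition lack Fn14, the receptor of the cytokine TWEAK, which the gene Tnfrsf12a encodes. They were littermates of the MRL/lpr mice from a backcross, whereas the MRL/+ mice (MRL/MpJ in the labels) were bought from another breeder, so that breeding colony and the lpr genotype cannot be told apart. An array held 2 mice of the same group, 1 read in Cy3 (replicates 1 and 3) and 1 in Cy5 (replicates 2 and 4), and each group had its 2 arrays on a slide of its own, so an effect of the slide cannot be told apart from that of the group. Signals are in units of the median retained spot of the mouse.

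Central myelin is made by oligodendrocytes, which wrap their flattened membrane around axons, compact it and seal its edges, so that action potentials jump from node to node. Its proteins fall into those that compact the membrane (such as MBP and MOBP), those on its surface or at the axon (MOG, MAG), the tight junction protein of the sheath (CLDN11), proteins of its transport and cytoskeleton (MAL, CNP) and the enzymes that make its lipids, among them UGT8, which makes galactosylceramide. Oligodendrocytes are densest in the deep layers of the cortex and in the white matter beneath them. In such bulk RNA, fewer oligodendrocytes, less myelin RNA per oligodendrocyte and less white matter in the tissue taken cannot be told apart.

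Myelin genes share transcription factors, chief among them SOX10 and MYRF, and the sequences upstream of the members were read with this in view. RefSeq promoters of GRCm38.p6 were at hand for 8 of the 9 members, 3 of them for Mag and 1 for each other gene, and a gene was counted where any of its promoters held a match. The core that SOX proteins recognise, searched as ACAAAG on both strands, lay in the 250 bases before the start site of Cnp, Mag, Mobp and Opalin, that is in 4 of these 8 genes against 18.6% of all 27025 genes with a promoter. By promoter it was 5 of 10 against 16.5% of 32851, since 1 of the Mag promoters held none. The MYRF core, searched as CTGGCAC or CTGGTAC on both strands, lay before Cnp, Mag and Mog, in 3 of 8 genes against 6.79% of all genes, and in 4 of 10 promoters against 5.93%. The Mag promoters with matches overlap and share the same SOX and MYRF sites, so the counts by promoter hold each of these sites more than once. The search motifs do not overlap each other. Neither CAGCTG, an E-box, which 13.0% of all promoters hold, nor TATAAA, which 12.4% hold, was found before any of the 8. Shown are the stretches of Cnp and Mag, which hold both cores, and of Mobp, which holds the SOX core 6 times. Capitals mark the matches on either strand, and bases run 5′ to 3′ along the strand of the gene, for Cnp at chr11:100574689-100574938 (plus strand), for Mag at chr7:30914923-30915172 (minus strand) and for Mobp at chr9:120149492-120149741 (plus strand).
Cnp: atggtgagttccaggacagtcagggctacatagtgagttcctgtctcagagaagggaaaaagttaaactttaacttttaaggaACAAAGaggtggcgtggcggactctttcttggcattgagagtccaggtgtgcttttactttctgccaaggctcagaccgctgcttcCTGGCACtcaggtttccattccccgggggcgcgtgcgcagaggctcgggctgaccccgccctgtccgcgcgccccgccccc
Mag: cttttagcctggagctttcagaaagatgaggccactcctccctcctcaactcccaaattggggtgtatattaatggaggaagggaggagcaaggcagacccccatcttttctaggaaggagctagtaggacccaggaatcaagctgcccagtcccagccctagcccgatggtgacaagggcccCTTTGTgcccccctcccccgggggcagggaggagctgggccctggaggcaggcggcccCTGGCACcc
Mobp: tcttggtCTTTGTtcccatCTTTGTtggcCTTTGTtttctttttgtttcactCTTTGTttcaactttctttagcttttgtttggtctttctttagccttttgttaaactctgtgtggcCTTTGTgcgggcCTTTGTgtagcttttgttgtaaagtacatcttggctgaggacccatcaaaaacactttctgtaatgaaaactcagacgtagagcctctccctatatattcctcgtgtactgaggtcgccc
A match describes these letters only and was not tested for binding.

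The arrays as a whole set the following frame. Between MRL/lpr and Fn14ko the median log2 difference of all genes was -0.07, between MRL/lpr and MRL/+ -0.10 and between Fn14ko and MRL/+ -0.10, with a median standard error (SE) of 0.25. The MRL/+ mice read in Cy5 stood apart, with 35.0% and 21.2% of their spots well above background against 56.6% to 70.0% in the other 10 mice. Only 15 and 9 of their spots lay under 2 times the background, against 8465 to 14724 elsewhere, so the filter on dim spots rests on the other mice. For the members and the genes taken by the rule for named genes, calls of MRL/lpr against MRL/+ lost without these mice are therefore given beside the results. Tnfrsf12a, the gene deleted in Fn14ko, had signals of 0.604 to 0.777 there, below the 0.943 to 1.28 of MRL/+ and the 1.38 to 1.90 of MRL/lpr, with no overlap. Whether its probe lies in the deleted stretch is not given in the sources used here. Fas, whose mutation defines lpr, was dim and overlapped between groups (0.164 to 0.284 in MRL/lpr, 0.171 to 0.331 in Fn14ko and 0.186 to 0.647 in MRL/+). These values were not set against those of Tnfrsf12a. With 6 arrays, precision is limited throughout.

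The compacting proteins of myelin come first. Mbp, myelin basic protein, holds the inner membrane faces together. Its signal in MRL/lpr replicates 1 to 4 was 0.913, 0.691, 0.816 and 1.34, in Fn14ko 3.37, 1.70, 2.15 and 1.31, and in MRL/+ 3.56, 3.04, 3.65 and 1.61. All MRL/lpr mice lay below all MRL/+ mice, while MRL/lpr replicate 4 was slightly above Fn14ko replicate 4. The means were 0.939 ± 0.281 (SD, n = 4), 2.13 ± 0.896 and 2.96 ± 0.942. The log2 difference was -1.14 (SE 0.35) from Fn14ko and -1.63 (SE 0.35) from MRL/+, the latter with a limma adjusted p of 0.0110. Mobp, a small basic protein of compact myelin, was at 0.685, 1.26, 0.936 and 0.865 in MRL/lpr, 3.08, 1.95, 2.00 and 1.55 in Fn14ko, and 2.01, 1.68, 1.81 and 1.24 in MRL/+. Every MRL/lpr mouse was below every Fn14ko mouse, and MRL/lpr replicate 2 was just above the lowest MRL/+ mouse. Mobp differed from Fn14ko by -1.18 (SE 0.29) on the log2 scale and from MRL/+ by -0.86 (SE 0.29), where the limma adjusted p of 0.0647 missed the threshold of 0.05.

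Of the surface proteins, Mag encodes the adhesion molecule of the innermost wrap that faces the axon. Its signal was 5.34, 6.23, 6.41 and 6.0 in MRL/lpr, 14.1, 8.57, 13.0 and 8.07 in Fn14ko, and 9.39, 6.76, 14.3 and 8.16 in MRL/+. The 4 MRL/lpr mice lay close together and below all 8 other mice. The log2 difference was -0.83 (SE 0.25) from Fn14ko and -0.63 (SE 0.25) from MRL/+, with a limma adjusted p of 0.0946. Mog encodes an immunoglobulin-like protein of the outermost myelin surface, a well known target of autoimmunity. It was at 1.02, 0.748, 1.12 and 0.856 in MRL/lpr, 2.04, 1.32, 1.86 and 1.00 in Fn14ko, and 1.67, 0.998, 1.63 and 0.744 in MRL/+. Within each group the mice read in Cy3 were the higher ones, and the groups overlapped. Mog differed by -0.69 (SE 0.19) from Fn14ko and by -0.36 (SE 0.19) from MRL/+ on the log2 scale (limma adjusted p = 0.181).

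Cldn11 and Opalin gave the other calls against MRL/+. Cldn11, the claudin that seals the layers of the sheath, was at 2.72, 2.34, 3.54 and 4.10 in MRL/lpr, 5.84, 4.85, 4.78 and 5.70 in Fn14ko, and 7.58, 6.70, 7.79 and 6.37 in MRL/+. The 3 groups did not overlap, with Fn14ko between the others. The log2 difference of MRL/lpr was -0.76 (SE 0.21) from Fn14ko and -1.19 (SE 0.21) from MRL/+, with a limma adjusted p of 0.00397. Opalin, a membrane glycoprotein of the oligodendrocyte, was at 0.276, 0.318, 0.376 and 0.446 in MRL/lpr, 0.509, 0.542, 0.824 and 0.552 in Fn14ko, and 0.566, 0.763, 0.636 and 1.07 in MRL/+. All MRL/lpr mice were below the 8 others, and Fn14ko and MRL/+ overlapped. Opalin differed by -0.77 (SE 0.27) from Fn14ko and by -1.08 (SE 0.27) from MRL/+ on the log2 scale (limma adjusted p = 0.0220), though only 2 of the 4 MRL/+ mice had this probe well above background.

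Cnp, Mal and Ugt8a serve the cytoskeleton, transport and lipids of the sheath. Cnp, a phosphodiesterase that keeps channels of cytoplasm open in myelin, was at 5.90, 5.90, 7.41 and 6.66 in MRL/lpr, 17.3, 15.9, 16.4 and 9.54 in Fn14ko, and 12.5, 9.84, 16.2 and 6.88 in MRL/+. MRL/lpr lay below Fn14ko without overlap, and its highest mouse was above the lowest MRL/+ mouse. The log2 difference was -1.16 (SE 0.27) from Fn14ko and -0.75 (SE 0.27) from MRL/+ (limma adjusted p = 0.0776). Mal, a proteolipid of the sorting of membrane to myelin, was at 6.78, 7.47, 13.7 and 10.6 in MRL/lpr, 16.6, 12.9, 19.1 and 15.1 in Fn14ko, and 11.7, 9.36, 12.2 and 4.07 in MRL/+. Here MRL/lpr and MRL/+ overlapped widely, and all Fn14ko mice were above all MRL/+ mice. Ugt8a, the galactosylceramide enzyme, was at 0.674, 0.917, 1.19 and 1.30 in MRL/lpr, 1.66, 1.44, 1.42 and 1.26 in Fn14ko, and 1.39, 1.17, 1.15 and 0.686 in MRL/+. Its groups overlapped in every comparison, and MRL/lpr differed from Fn14ko by -0.54 (SE 0.27) on the log2 scale, against -0.77 (SE 0.35) for Mal.

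**Figure D1:**
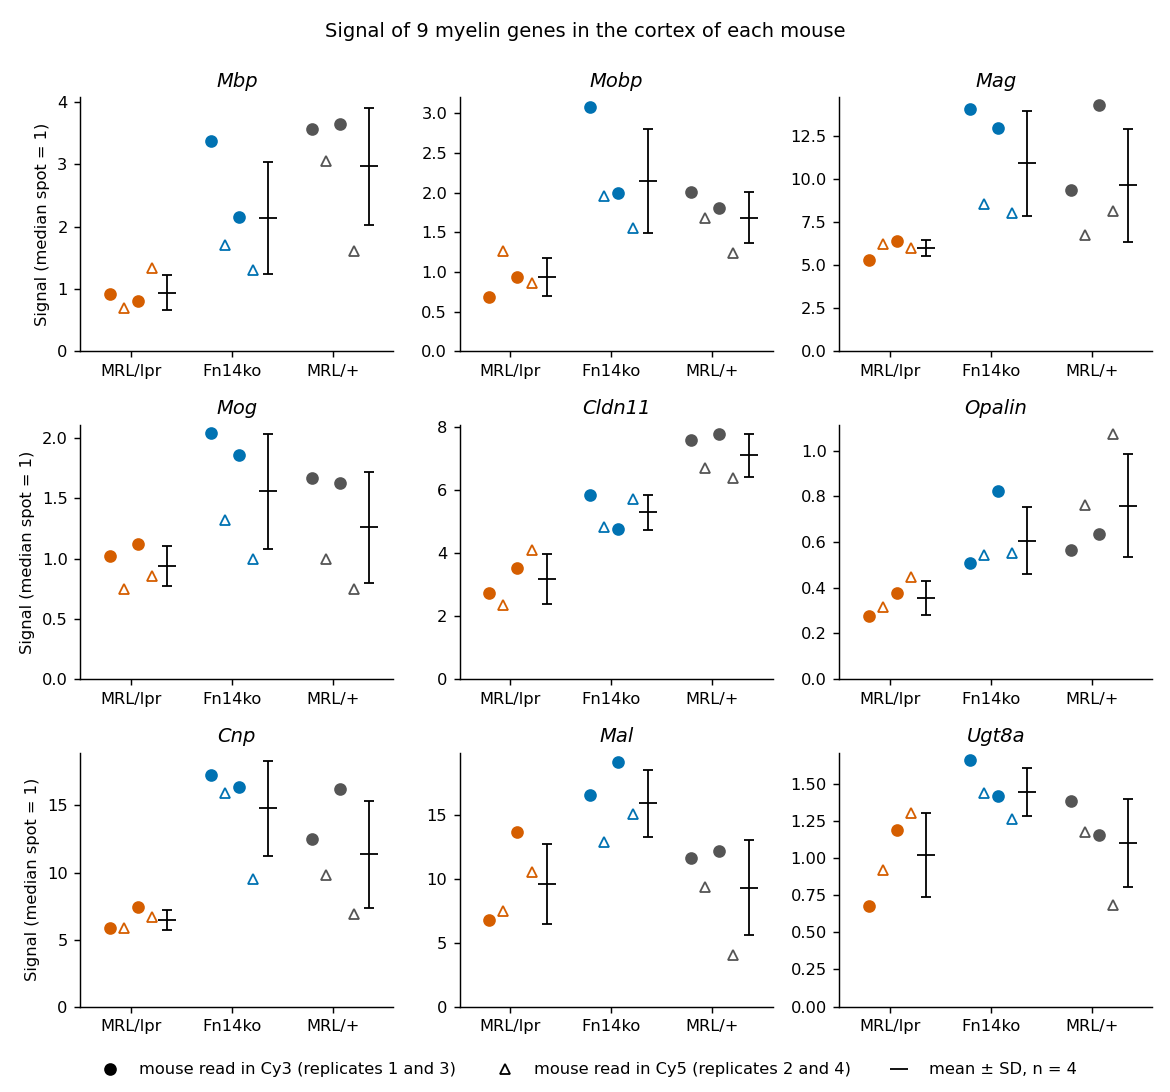
Signal of each of the 9 genes (vertical axes, median spot of a mouse = 1, each from 0) in the 4 mice of MRL/lpr, Fn14ko and MRL/+, with filled circles for mice read in Cy3, open triangles for Cy5, and group mean and SD. Mag, Mobp, Cnp, Cldn11 and Opalin do not overlap between MRL/lpr and Fn14ko, and in Cldn11 the MRL/+ mice (6.37 to 7.79) stand above both other groups.

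Between MRL/lpr and Fn14ko all 9 log2 differences were below 0, with a median of -0.77, which the choice of the genes fixed. Every MRL/lpr mouse lay below every Fn14ko mouse in 5 of them (Mag, Mobp, Cnp, Cldn11 and Opalin), as did 11.3% of all genes. Among the mice read in Cy3 they ran from -1.64 to -0.77 and among those read in Cy5 from -0.98 to -0.30, lower in Cy3 for 9 of 9 genes. Members were higher in Cy3 than in Cy5 in 9 of 9 cases within Fn14ko, 8 of 9 within MRL/+ and 4 of 9 within MRL/lpr, while the median gene was slightly lower in Cy3 in each group (-0.04, -0.15 and -0.13 on the log2 scale, in the same order). The part of the dye in this difference was not tested. No member changed sign in this comparison when a mouse or an array was left out, though leaving out MRL/+ mice could not move these differences. Mbp was the member that depended most on the processing: its log2 difference shrank from -1.14 to -0.09 when spots marked as uneven were kept.

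Against MRL/+ the question was whether myelin genes differ between the lupus-prone strain and its background control. MRL/lpr was lower in 3 of the 9 genes at a limma adjusted p under 0.05 (Mbp, Cldn11 and Opalin, with 3.10-fold, 2.29-fold and 2.11-fold lower geometric means) and in 0 higher, where 8.37% of all genes were lower and 6.03% higher. Before adjustment, 6 of the 9 had a limma p under 0.05, but the share of all genes under it was not counted. The limma p of 0.0232 of Mag became 0.0946 on adjustment, so a p of this size was not rare among all genes. Every MRL/lpr mouse was below every MRL/+ mouse in Mbp, Mag, Cldn11 and Opalin, 4 of 9 genes against 13.0% of all genes. That separation fixes their exact permutation p at the smallest value that 4 against 4 mice allow (0.0286, 2-sided), so it adds no support of its own. The median of the 9 log2 differences was -0.75, against -0.10 over all genes, and was -0.39 in the Cy5 mice alone and -0.15 without the filter on dim spots. Mal (0.11, SE 0.35, limma adjusted p = 0.838) and Ugt8a (-0.11, SE 0.27, limma adjusted p = 0.795) were nearest to 0. The sign of Mal turned negative under 5 of 7 other treatments of the signal, in the Cy3 mice, without the MRL/+ mice read in Cy5 and in 4 of 18 fits that left out a mouse or an array, and that of Ugt8a turned positive without a filter on dim spots, in the Cy5 mice and in 4 of those 18 fits. The MRL/lpr mice had also entered the choice of the genes, so these tests are not independent of it.

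These calls rest on few mice. Without the MRL/+ mice read in Cy5, Mbp differed by -1.81 (limma adjusted p = 0.0436) and Cldn11 by -1.31 (limma adjusted p = 0.0189), whereas Opalin, at -0.78, was no longer called (limma adjusted p = 0.200). Without the array of MRL/lpr replicates 1 and 2, which left 0 of 9 members called, the limma adjusted p was 0.0553 for Mbp, 0.0599 for Cldn11 and 0.142 for Opalin. Opalin was also lost without MRL/lpr replicate 1 (0.0505), MRL/+ replicate 4 (0.131) or the array of MRL/+ replicates 3 and 4 (0.0603). With spots marked as uneven kept, Mbp differed from MRL/+ by only -0.09 (limma adjusted p = 0.872). The comparison also shifted with brightness. With all genes divided into 4 bins of equal size from dim (bin 1) to bright (bin 4), the median log2 difference from MRL/+ was -0.83 in bin 1 and 0.24 in bin 4, and 10.3%, 14.4%, 5.97% and 2.80% of the genes of bins 1 to 4 were called lower. Opalin lay in bin 2, Mbp in bin 3 and Cldn11 in bin 4.

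**Figure D2:**
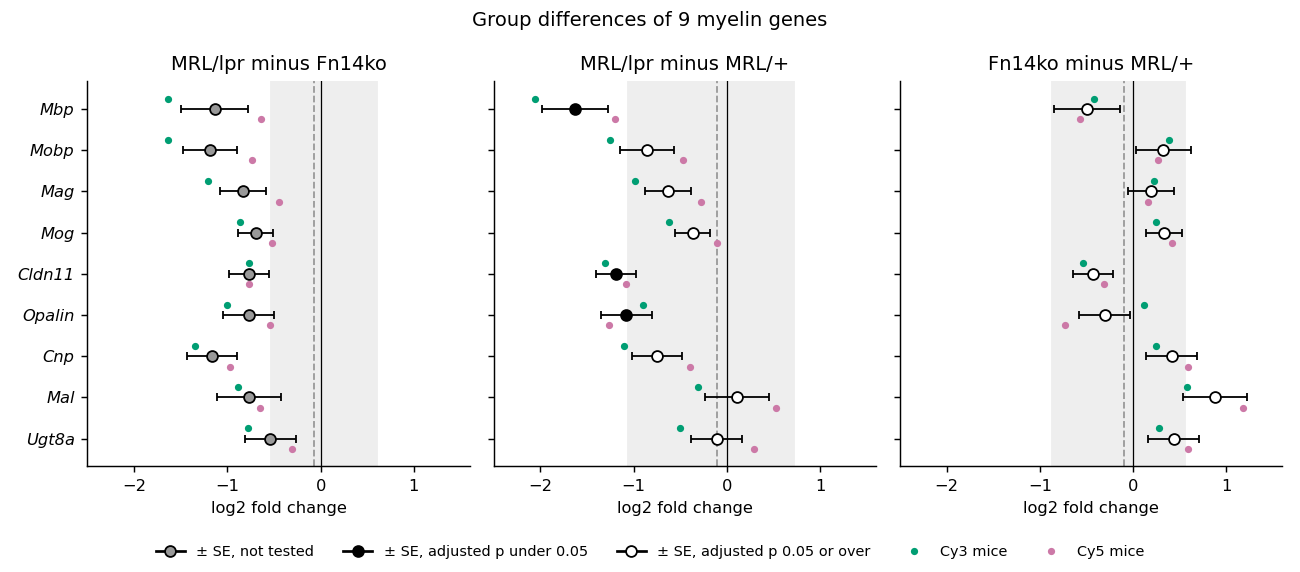
Log2 difference (horizontal axis) of the 9 genes in the 3 comparisons, as estimate with SE, with small dots for the Cy3 and the Cy5 mice alone, a grey band from the 10th to the 90th percentile of all genes and a dashed line at their median. All 9 estimates are below 0 in MRL/lpr minus Fn14ko, filled black points mark Mbp, Cldn11 and Opalin in MRL/lpr minus MRL/+, and in Fn14ko minus MRL/+ the estimates lie on both sides of 0.

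When Fn14ko was compared with MRL/+, none of the 9 genes had a limma adjusted p under 0.05, and Mal was the only one under 0.05 before adjustment, while 0.717% of all genes were called lower and 0.237% higher in Fn14ko. Mal was 0.88 higher in Fn14ko on the log2 scale (SE 0.35, limma adjusted p = 0.183), with every Fn14ko mouse above every MRL/+ mouse. Cldn11 ran the other way, at -0.43 (SE 0.21, limma adjusted p = 0.251), with every Fn14ko mouse below every MRL/+ mouse. Both had an exact permutation p of 0.0286, the smallest possible, which the lack of overlap fixes. The share of all genes without overlap was not counted in this comparison. The 13.0% for MRL/lpr below MRL/+ holds for another pair of groups and 1 direction only. The lack of overlap of Mal and Cldn11 therefore stands without a share of all genes to set it against. Mbp (-0.49) and Opalin (-0.31) were also below 0, and Mag, Mog, Mobp, Cnp and Ugt8a were between 0.19 and 0.43, for a median of 0.32 against -0.10 over all genes. That median was 0.16 without Fn14ko replicate 1, 0.14 without the array of Fn14ko replicates 1 and 2, 0.20 without MRL/+ replicate 4, 0.18 without the array of MRL/+ replicates 3 and 4, 0.15 without the MRL/+ mice read in Cy5 and -0.21 over the members that remained when only spots well above background were kept. Without the MRL/+ mice read in Cy5, Mal was at 0.52 (limma adjusted p = 0.792). Signs here were not firm, since only Mog, Mal and Ugt8a kept theirs under every treatment of the signal and every choice of mice that was tried. Cldn11 passed the threshold when arrays were corrected by loess (-0.71, limma adjusted p = 0.0403) or when only spots well above background in all mice were kept (-0.65, limma adjusted p = 0.0377).

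Mbp and Mobp were each read by several probes, and these did not move alike. Coordinates of the probes are those of mm9 in the files. The bright retained probe of Mbp spans a splice junction at base 916 of its transcript, at chr18:82742266-82744570. It was at 1.56, 0.955, 1.49 and 2.48 in MRL/lpr, 6.45, 3.18, 4.17 and 2.48 in Fn14ko, and 6.71, 5.50, 7.09 and 2.70 in MRL/+. This probe gives the Mbp result, with -1.75 against MRL/+ (limma adjusted p = 0.0126). A probe further upstream, at chr18:82691469-82691528, was dim throughout (0.125 to 0.591) and differed by -0.75 from MRL/+ (limma adjusted p = 0.258) and by 0.37 from Fn14ko. The third probe, at base 4653 and chr18:82727929-82727988, was left out because its spot was marked as uneven in MRL/lpr replicate 1. It read 4.64, 18.9, 7.39 and 8.40 in MRL/lpr, 6.13, 6.68, 6.82 and 8.42 in Fn14ko, and 3.98, 4.62, 4.60 and 8.04 in MRL/+. MRL/lpr was not the low group there, so the lower Mbp signal was seen by the junction probe alone among the bright ones.

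For Mobp, the probe at base 222 (chr9:120077006-120077065) was at 0.775 to 1.06 in MRL/lpr, 1.53 to 4.00 in Fn14ko and 2.12 to 2.92 in MRL/+. MRL/lpr was below both other groups without overlap, with -1.44 against MRL/+ (limma adjusted p = 0.00527). The probe at base 3226 (chr9:120085150-120085209) was at 1.19 to 2.67 in MRL/lpr, 2.92 to 4.82 in Fn14ko and 1.22 to 2.67 in MRL/+. At this position MRL/lpr and MRL/+ overlapped (-0.27, limma adjusted p = 0.615), and Fn14ko was above both. A further, dim probe at base 1404 (chr9:120078400-120078459) differed by -1.44 from MRL/+ (limma adjusted p = 0.0685), and was well above background in 1 of 4 MRL/lpr mice. All 3 Mobp probes were lower in MRL/lpr than in Fn14ko, by -1.28, -1.16 and -0.90. Whether the probes see different transcripts was not tested.

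The remaining members had 1 probe each, for Mag at chr7:31684202-31684261, for Mog at chr17:37148277-37148336, for Cnp at chr11:100442617-100442676, for Mal at chr2:127458976-127459035, for Cldn11 at chr3:31062922-31062981 and for Ugt8a at chr3:125568995-125569054. The Opalin probe spans a junction at chr19:41138452-41141030. These probes were well above background in all mice of MRL/lpr and Fn14ko, and in 3 of 4 MRL/+ mice for Mog and Ugt8a.

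**Figure D3:**
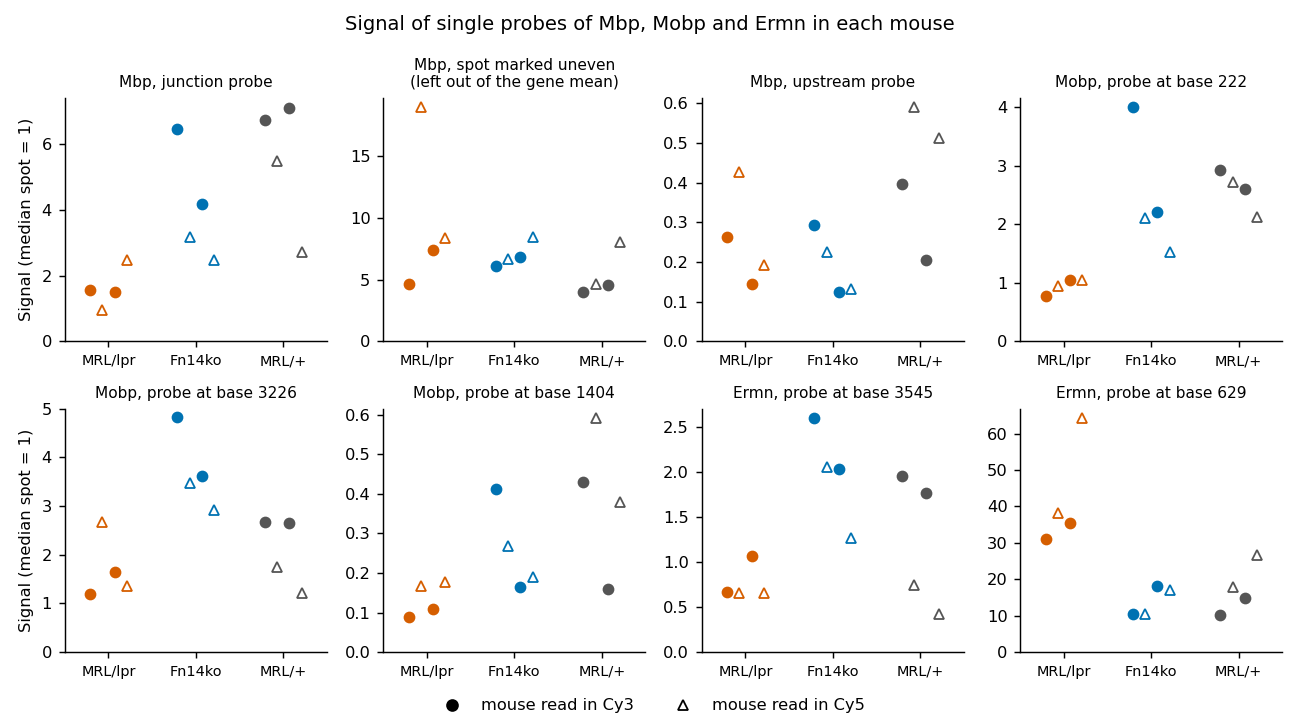
Signal (vertical axes, median spot = 1, each from 0) of single probes of Mbp, Mobp and Ermn in each mouse of the 3 groups, circles for Cy3 and triangles for Cy5. The Mbp junction probe and the Mobp probe at base 222 are low in MRL/lpr, while the Ermn probe at base 629 is high in MRL/lpr, opposite to the other Ermn probe.

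Other genes of the oligodendrocyte and of myelinated axons were read from 6 lists with 101 quantified genes. Among other myelin proteins, 40 of 43 were quantified, and 10 fell in MRL/lpr against Fn14ko while 1 rose, at a limma adjusted p under 0.05, where 1.99% of all genes fell and 2.58% rose. Their median log2 difference was -0.69, with 38 of 40 below 0, against -0.07 over all genes. Anln, an actin-binding protein that myelin contains, was at 0.629 to 1.15 in MRL/lpr, 2.02 to 3.52 in Fn14ko and 2.95 to 3.42 in MRL/+, and fell by 1.61 on the log2 scale from Fn14ko (SE 0.25, limma adjusted p = 0.00340). Gpr37, a receptor that restrains the maturation of oligodendrocytes, was at 2.39 to 3.56, 6.78 to 8.32 and 4.79 to 7.76 in the same order, and fell by 1.40 (SE 0.21, limma adjusted p = 0.00278). Among the other genes that fell were Trf (transferrin, -1.20), Evi2a (-1.13), Tmem63a (-1.11), Tspan2 (-1.03), Bcas1 (-0.88), Gsn (gelsolin, -0.86) and S1pr5 (a receptor of sphingosine phosphate, -0.77), named after their values were seen. Against MRL/+, 9 of the 40 fell and 1 rose, where 8.37% of all genes fell and 6.03% rose, with a median of -0.39 against -0.10 over all genes. Anln fell by 1.84 (limma adjusted p = 0.00102), Gpr37 by 1.11 (limma adjusted p = 0.00607) and Tmem88b, a membrane protein of oligodendrocytes, by 1.45 (limma adjusted p = 0.0293), a call lost in 8 of 18 fits without a mouse or an array and without the MRL/+ mice read in Cy5 (-1.09, limma adjusted p = 0.259). Between Fn14ko and MRL/+ limma called none of the 40 (13 had an unadjusted p under 0.05), and the median was 0.25. Over the 6 lists together, MRL/lpr was called lower in 10 of 101 genes against Fn14ko, where 1.99% of all genes were lower, and in 11 of 101 against MRL/+, where 8.37% were lower, so that the latter count stands near the share of all genes. The former count became 3 without the array of Fn14ko replicates 1 and 2, 4 without that of MRL/lpr replicates 1 and 2, 5 without that of Fn14ko replicates 3 and 4, and 6 without MRL/lpr replicate 1, Fn14ko replicate 2 or MRL/+ replicate 4. The latter became 4 without MRL/+ replicate 4 and 5 without the array of MRL/lpr replicates 1 and 2. The lists were drawn up with earlier results of these arrays known, so their directions are not independent of the choice of the members.

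Ermn had a pair of probes that ran against each other. Ermn, ermin, a cytoskeletal protein of late oligodendrocytes, was the gene of the list that rose, by 1.41 on the log2 scale against Fn14ko (limma adjusted p = 0.0151) and by 1.22 against MRL/+ (limma adjusted p = 0.0170), calls that were lost in 4 and 2 of 18 fits without a mouse or an array. That rise came from the probe at base 629 (31.0 to 64.2 in MRL/lpr, 10.4 to 18.1 in Fn14ko and 10.1 to 26.6 in MRL/+). The probe at base 3545 was at 0.655 to 1.07, 1.27 to 2.60 and 0.418 to 1.95, with -1.37 against Fn14ko (limma adjusted p = 0.0668). As a mean of log2 probe values, Ermn was at 0.11 against Fn14ko (limma adjusted p = 0.855).

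Of 9 quantified transcription factors, among them Sox10, Olig1, Olig2 and Nkx2-2, none passed the limma threshold in any comparison, with medians of -0.19 for MRL/lpr against Fn14ko (2 with an unadjusted p under 0.05) and -0.21 against MRL/+ (1). Sox10 was at -0.41 (limma adjusted p = 0.548) and Olig1 at -0.51 (limma adjusted p = 0.200) against Fn14ko. Of 14 genes of oligodendrocyte precursors limma called none against Fn14ko, with 0 at an unadjusted p under 0.05 and a median of -0.05. The precursor proteoglycan Cspg4 was lower in MRL/lpr than in MRL/+ by -0.59 (limma adjusted p = 0.0368), but was at 0.01 without the filter on dim spots, and lost the call in 9 of 18 fits without a mouse or an array and without the MRL/+ mice read in Cy5 (-0.43, limma adjusted p = 0.271). The 9 genes of galactolipid and very long chain lipid synthesis, which work beside Ugt8a, gave no limma call in MRL/lpr, with medians of -0.44 against Fn14ko and -0.47 against MRL/+ (3 and 4 with an unadjusted p under 0.05). Cholesterol synthesis, with 17 genes, gave Sc5d, a late enzyme of the pathway, lower than MRL/+ in MRL/lpr (-0.71, limma adjusted p = 0.0269) and in Fn14ko (-0.97, limma adjusted p = 0.0364), lost in 4 and 8 of 18 such fits, the latter also without the MRL/+ mice read in Cy5 (limma adjusted p = 0.125). Among 12 axonal and nodal partners of myelin, Lingo1, an axonal inhibitor of myelination, rose in MRL/lpr by 1.23 against Fn14ko (limma adjusted p = 0.00229) and by 0.58 against MRL/+ (limma adjusted p = 0.0477), the latter lost in 13 of 18 fits without a mouse or an array and without the MRL/+ mice read in Cy5 (limma adjusted p = 0.0612). The 12 had medians of 0.25 against Fn14ko and 0.43 against MRL/+. Scn8a, the sodium channel of mature nodes, rose by 0.81 against Fn14ko (limma adjusted p = 0.0341, lost in 9 of 18).

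**Figure D4:**
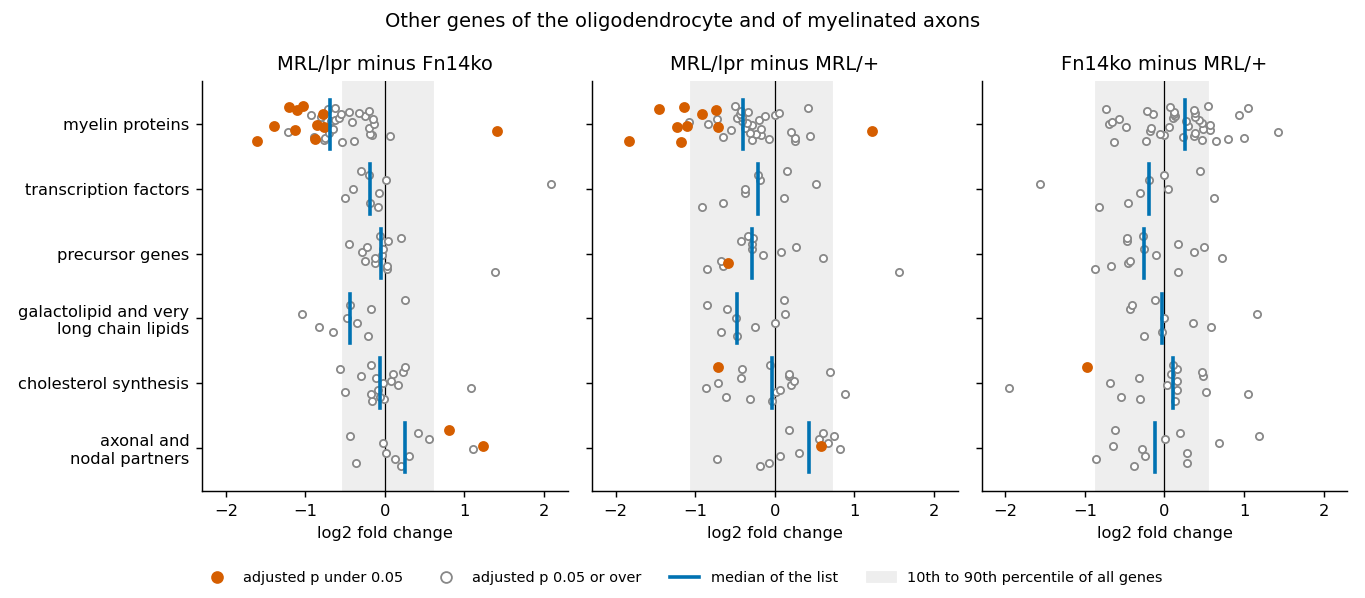
Log2 difference (horizontal axis) of each quantified gene of 6 oligodendrocyte and axon lists in the 3 comparisons, filled where the limma adjusted p was under 0.05, with the median of each list as a bar and the 10th to 90th percentile of all genes in grey. The medians of the myelin proteins lie at -0.69 and -0.39 in the comparisons of MRL/lpr and at 0.25 between Fn14ko and MRL/+.

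Markers of other tissue moved along with some of these mice. The summed signal of 10 striatal genes was 33.7 to 54.7 in MRL/lpr and 16.9 to 27.1 in MRL/+, but 199.7, 35.3, 25.5 and 22.1 in Fn14ko replicates 1 to 4. Fn14ko replicate 1 was thus far above the other mice, and it was also the mouse with the highest mean log2 signal of the 9 myelin genes (2.08, against 1.46 to 1.94 in the other Fn14ko mice). Gene by gene, 8 of the 10 striatal genes were below 0 in MRL/lpr against Fn14ko, with a median log2 difference of -0.59. Against MRL/+ their median was 0.56. Without Fn14ko replicate 1, the striatal median against Fn14ko was 0.10 and that of the 9 myelin genes -0.79. Without this mouse, the oligodendrocyte genes called lower against Fn14ko went from 10 to 7. Choroid plexus, of which 7 of 10 genes were quantified, summed to 8.84, 7.23, 100.1 and 14.9 in MRL/lpr, 65.0, 122.0, 13.8 and 182.6 in Fn14ko and 17.7, 85.6, 23.4 and 267.2 in MRL/+. All 7 were lower in MRL/lpr than in Fn14ko (median -1.87), and Clic6, a chloride channel protein, passed the threshold (-2.96, limma adjusted p = 0.0494, lost in 12 of 18 fits without a mouse or an array). Beside these sums, the mean log2 signal of the 9 myelin genes in replicates 1 to 4 was 0.68, 0.77, 1.09 and 1.11 in MRL/lpr, 2.08, 1.65, 1.94 and 1.46 in Fn14ko, and 1.84, 1.58, 1.93 and 1.18 in MRL/+. Within MRL/lpr the 2 mice with more choroid plexus signal had the higher means, and within Fn14ko and MRL/+ the 2 mice with more of it, which were those read in Cy5, had the lower ones. Trf and Enpp2 of the myelin list are known to be expressed in choroid plexus too. Peripheral myelin genes, of which 3 of 5 were quantified, summed to 1.00 to 1.18 in MRL/lpr, 1.00 to 1.50 in Fn14ko and 1.37 to 2.20 in MRL/+.

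Other cell types of cortex were read from lists in the same way. Against Fn14ko the median log2 difference was -0.01 over 10 astrocyte genes (5 below 0), 0.24 over 10 microglial genes (3 below 0), 0.32 over 8 endothelial genes (1 below 0), -0.15 over 8 interneuron genes (5 below 0) and 0.00 over 10 genes of cortical excitatory neurons (5 below 0), against -0.07 over all genes. Among the excitatory neuron genes Neurod6 (-2.11, limma adjusted p = 0.00766) and Cux2 (1.73, limma adjusted p = 0.0121), both transcription factors of excitatory neurons, went in opposite directions. Vip, an interneuron peptide, rose by 1.09 (limma adjusted p = 0.0109). Of 18 fits without a mouse or an array, Neurod6 lost its call in 1, Cux2 in 2 and Vip in 2. Against MRL/+, the endothelial list had a median of 0.76 with 4 of 8 genes higher in MRL/lpr, led by Ly6c1 (1.47, limma adjusted p = 0.00827). In that comparison 8.37% of all genes were called lower in MRL/lpr and 6.03% higher. Of interneuron genes 3 of 8 were higher (median 0.54), and of excitatory neuron genes 3 of 10 were lower and 3 higher (median 0.01). Of microglial genes 1 of 10 was higher (median 0.36). All 7 choroid plexus genes were below 0 (median -1.50), with 1 called. Without the MRL/+ Cy5 mice, Abcb1a of endothelium (limma adjusted p = 0.177) and Pvalb of interneurons (limma adjusted p = 0.190) lost their calls. So did Aif1 of microglia (limma adjusted p = 0.163) and Clic6 (limma adjusted p = 0.341). Among excitatory neuron genes, Tbr1 (limma adjusted p = 0.0616) and Slc17a7 (limma adjusted p = 0.0671) lost theirs. Ly6c1 kept its call, and genes outside the rule for named genes were not followed singly. Of 8 lymphocyte genes 4 were quantified, and limma called none (1 with an unadjusted p under 0.05 in each comparison). The part of these tissues and cell types in the values of the myelin genes was not tested.

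**Figure D5:**
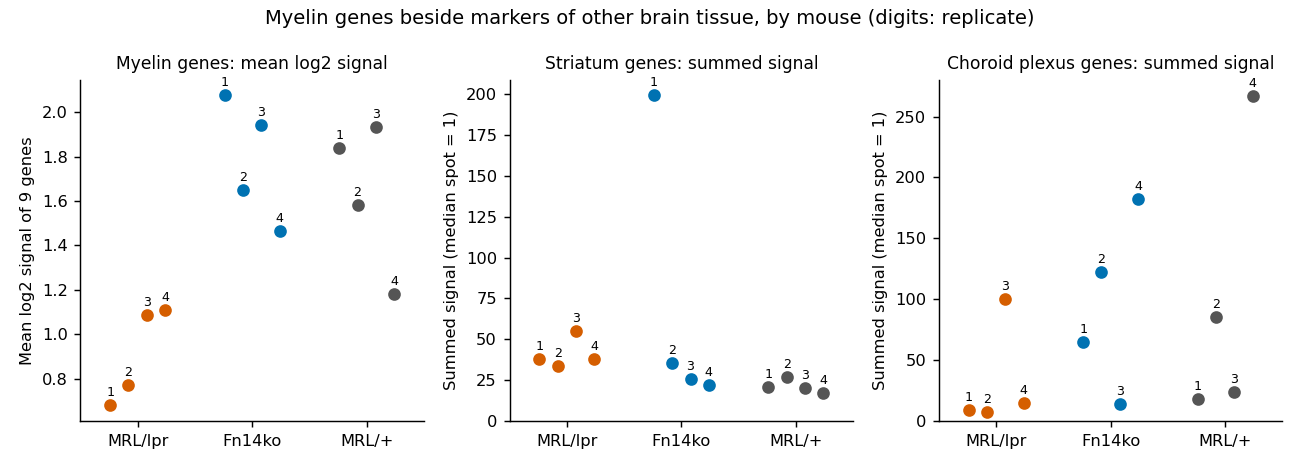
Mean log2 signal of the 9 myelin genes (left), summed signal of 10 striatal genes (middle) and of 7 choroid plexus genes (right) in each mouse of the 3 groups, with digits for the replicate. Fn14ko replicate 1 stands out in the striatal sum (199.7), and the choroid plexus sum ranges widely within every group.

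The 9 genes were also compared in how they varied from mouse to mouse. The dye difference common to the 3 groups was first removed from the log2 signals. Each gene was then set against the mean of the other 8 across the 12 mice, which vary by group and array together. Pearson's r ran from 0.54 (Mal) to 0.94 (Cnp), and with group means removed from -0.11 (Opalin) to 0.88 (Ugt8a). Of the 36 pairs of members, 29 had an r above 0 after group means were removed, with a median of 0.50. The closest pairs were Mog with Cnp (0.91), Mal with Ugt8a (0.89) and Mog with Ugt8a (0.84). Opalin was the exception, with r from -0.29 to 0.22 with the others. Among genes outside the 9, the 10 with a pattern across the 12 mice most like the members' mean included Gm9933 (r = 0.96), Angptl8 (0.96), Snx33 (0.96), Itgb4 (0.96), Rnf149 (0.93), Defa-rs2 (0.93), Spink8 (0.93), Efhd1 (0.93) and Nmral1 (0.93), against a median r of 0.13 over all genes. With group means removed they were the transcript ENSMUST00000236477.1 (0.96), Sox13 (0.93), Eif3j2 (0.93), Dctpp1 (0.92), Tmem229a (0.91), Efhd1 (0.90), Btbd17 (0.90), the transcript ENSMUST00000050391.1 (0.90), Ilrun (0.90) and Sox10 (0.89). Of the genes named here, Efhd1 and Sox10 stand on an oligodendrocyte list. Of the 40 other myelin proteins, 17 had an r over 0.7 with the members' mean across the 12 mice, against 5.13% of all genes, and the choice of members on group differences enters this count. Taken from the scanner software's own processed signal, 1 of the first 10 genes was again among the 10 most alike.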

How the data were processed

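Cortex RNA of 12 mice, 4 per group, was read on 6 Agilent 2-colour arrays, each channel being 1 mouse. The deposited files hold, per the file headers, the output of Agilent Feature Extraction 12.1.0.3: mean foreground intensity and median local background intensity of 44397 spots, not normalized, with quality marks and the software's processed signal. Groups came from the labels. From 43020 non-control spots, those that the software marked as non-uniform or as population outliers in at least 1 mouse (1952) or below 2 times the background in any mouse (17781) were left out, as the study's methods describe, leaving 24255 spots and 17302 genes. Background was corrected by normexp (offset 50, limma 3.58.1, R 4.3.3), channels were divided by their median spot, and each gene took the linear mean of its spots, so a bright spot outweighs dim ones. Log2 values were fitted with limma (dye as a term, array as a random block with correlation 0.316, variance trend), 2-sided, and p-values were adjusted by Benjamini-Hochberg across the 17302 genes, with a threshold of 0.05. Counts at an unadjusted p under 0.05 stand without the share of all genes, which was not counted. Single genes also had exact permutation tests over the 70 divisions of 8 mice, which leave the shared arrays out of account. Members, gene lists and tests were chosen with earlier results of these data known, and some lists and scripts started from an earlier analysis of them. The rule for named genes took the 9 members, Tnfrsf12a and Fas, in each list up to 4 called genes with the largest log2 fold change, and the 10 genes most like the members in pattern across the mice and in deviations from group means, of which some are not reported here. Trf, Evi2a, Tmem63a, Tspan2, Bcas1, Gsn, S1pr5, Enpp2, Olig1, Olig2 and Nkx2-2 fall outside it and were chosen after their values were seen. The fit was tested on simulated data. Alternatives were plain background subtraction, the processed signal, loess with quantile scaling of mean signal, scaling to the 75th percentile, no filter on dim spots, only spots well above background, marked spots kept, no dye term, no array block, a replicate block, only the groups compared, single probes, log2 means, the methods' t-test, the mice of 1 dye, no MRL/+ Cy5 mice, and each mouse or array left out. The methods' t-test is the study's unequal-variance t-test, here with Benjamini-Hochberg adjustment and without its fold-change cut-off for each gene. Its counts are therefore not those of the study's own rule. Python 3.11.15, numpy 2.4.6, pandas 2.3.3, matplotlib 3.10.9 and the R package data.table (version 1.17.8) were used.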

Additional observations from a re-analysis of the deposited data

Results flagged for a closer look

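Of 27 sets of 4 mice (9 genes in 3 groups), 2 held a mouse far from the other 3, where chance flags about 1 in 20. The Cnp signal of Fn14ko replicate 4 was 9.538, while the other Fn14ko mice were at 15.9 to 17.3. The Opalin signal of Fn14ko replicate 3 was 0.8236, while the others were at 0.509 to 0.552.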

How the results depend on the processing

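Limits: each group has 4 mice on 2 arrays of a slide of its own, the MRL/+ mice read in Cy5 had the fewest spots well above background, which bears on Mog, Ugt8a and Opalin, and most members rest on 1 probe. The 9 members stayed below 0 in MRL/lpr against Fn14ko in all settings that quantified them (6 members where only spots well above background were kept) and in all 18 fits without a mouse or an array. The choice of the genes fixed this direction. Fits without MRL/+ mice, and settings that changed only the dye term, the block or the groups fitted, could not move these differences. Mbp moved most, to -0.09 with marked spots kept and -0.47 as a mean of log2 probe values. The cause of each change listed here was not tested.

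Genes called in MRL/lpr against Fn14ko (790) became 2849 by plain background subtraction, 1889 with the processed signal, 2140 by loess, 32 without a filter on dim spots, 1782 without the array block, 181 by the methods' t-test, 469 in the Cy3 mice and 509 in the Cy5 mice, and 165 to 1228 without a mouse or an array. Oligodendrocyte genes called lower (10) became 26, 23, 21, 0, 20 and 3 in the first 6 of these settings, 4 in the Cy5 mice and 3 to 14 without a mouse or an array. Genes called in MRL/lpr against MRL/+ (2492) became 5140 by subtraction, 5070 by loess, 22 without a filter, 5189 without the array block, 721 by the methods' t-test, 1356 in the Cy3 mice, 4549 in the Cy5 mice, 871 without the MRL/+ Cy5 mice and 781 to 5551 without a mouse or an array. Members called there (3) became 6 by subtraction, 5 with the processed signal, 6 by loess, 6 with the 75th percentile, 0 without a filter (where limma tested 29149 genes), 5 with spots well above background, 6 without the array block, 1 by the methods' t-test, 5 in the Cy3 mice and 0 to 4 without a mouse or an array. Oligodendrocyte genes called lower there (11) became 25, 26, 26, 24, 0, 18, 21 and 5 in the first 8 of these settings, 6 without the MRL/+ Cy5 mice and 4 to 15 without a mouse or an array.

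Genes called in Fn14ko against MRL/+ (165) became 2837 by subtraction, 1012 with the processed signal, 2068 by loess, 604 with the 75th percentile, 0 without a filter, 805 with spots well above background, 294 without the dye term, 1881 without the array block, 365 with only the groups compared, 2 by the methods' t-test, 4787 in the Cy5 mice, 6 without the MRL/+ Cy5 mice and 2 to 2164 without a mouse or an array. Members called there (0) became 1 by loess and 1 with spots well above background, in both Cldn11, and 0 to 0 without a mouse or an array. Oligodendrocyte genes called lower there (1) became 9, 3 and 4 in the first 3 of these settings, 0 without a filter, 2 with spots well above background, 5 without the array block, 4 with only the groups compared, 0 by the methods' t-test, 11 in the Cy5 mice, 0 without the MRL/+ Cy5 mice and 0 to 4 without a mouse or an array. Of the 10 genes most like the members, 1 was again among the 10 with the processed signal and 4 to 9 without a mouse.

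Signs turned as follows. Against MRL/+, Mal in MRL/lpr was at -0.0470 by subtraction, -0.55 with the processed signal, -0.17 by loess, -0.13 with the 75th percentile, -0.0926 with spots well above background, -0.31 in the Cy3 mice, -0.25 without the MRL/+ Cy5 mice and -0.27 to 0.49 without a mouse or an array. Ugt8a was at 0.49 without a filter, 0.29 in the Cy5 mice and -0.44 to 0.22 without a mouse or an array, and without a filter Mog was at 0.23 and Cspg4 at 0.0131. In Fn14ko against MRL/+, without a filter Mbp was at 0.23, Cldn11 at 0.30 and Opalin at 0.42. Mag was at -0.0510 with the processed signal, -0.0680 by loess, -0.0561 with the 75th percentile, -0.0338 with spots well above background and -0.0272 to 0.41 without a mouse or an array. Mobp was at -0.38 with spots well above background, Cnp at -0.52 and Opalin at 0.33 with the processed signal, and Opalin at 0.11 in the Cy3 mice. Scaling to the 75th percentile moved the median of all genes by -0.23 in MRL/lpr and by -0.25 in Fn14ko against MRL/+, and loess by 0.11 and 0.14. The share of calls that were lower went from 58.1% to 76.1% with the 75th percentile in MRL/lpr against MRL/+, and in Fn14ko against MRL/+ from 75.2% to 85.1% with it, to 45.9% by loess, to 59.0% by subtraction and to 88.0% with the processed signal.

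The labels give the groups the same replicate numbers, but nothing says that these pair the mice, and the correlations of deviations between mice of the same number ran from -0.13 to 0.72, or from -0.28 to 0.48 with the dye taken out. With the replicate number as a block, 1624 genes were called in MRL/lpr against Fn14ko, 5597 in MRL/lpr against MRL/+ and 1209 in Fn14ko against MRL/+. Members called were 6 in MRL/lpr against MRL/+, and oligodendrocyte genes called lower were 18, 22 and 3 in the 3 comparisons.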
